A study of Mus musculus with 6 samples.

Results

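The cytosolic ribosomal protein genes encode the proteins of the small (Rps) and large (Rpl) subunits of the ribosome, together with the acidic stalk proteins of the large subunit (Rplp0, Rplp1 and Rplp2). Members were chosen by gene symbol, and 84 of the 33696 genes in the count matrices matched. They comprised 32 small subunit genes, 49 large subunit genes and the 3 stalk genes. Among them were 7 paralogs, which resemble another member and carry its name with an added letter or number: Rpl3l, Rpl7l1, Rpl10l, Rpl22l1, Rpl36al, Rpl39l and Rps27l. Fau encodes a ribosomal protein fused to a ubiquitin-like protein and falls outside the symbol rule.

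Cells were sorted as Gli1+ or Gli1- from Achilles tendons of Gli1-CreERT2; Ai9 reporter mice after tamoxifen, in which a cell that expressed Gli1 when the Cre was active keeps a fluorescent reporter. All 24 mice carried the same alleles and received tamoxifen; 8 were uninjured, and 8 each were collected at 7 and 21 days post-injury (dpi) after tenotomy, the cutting of the tendon. Each sort and time point gave 1 single-cell 3' library, 6 in all, so cells of several mice were pooled and no difference could be set against a spread between replicates. Intervals are exact 95% binomial or Poisson intervals and cover counting error only; differences between conditions were not tested.

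Cells make the ribosomal proteins in nearly equal numbers, since each ribosome holds a single copy of most of them. Their mRNAs are short, abundant and long-lived, and most begin with a C followed by a run of pyrimidines at the very 5' end, the 5' terminal oligopyrimidine (TOP) sequence, through which growth signals such as mTOR control their translation. In single-cell data their share of the UMIs, the counted mRNA molecules, therefore describes mRNA and not the number of ribosomes. Resting lymphocytes and basal keratinocytes are known for high shares.

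RefSeq starts (GRCm38.p6) were at hand for 64 of the 84 members. Within 10 bases before and 20 bases after the start, a C followed by 4 or more C or T letters was present on the sense strand in 40 of 64 members (62.5%), against 35.8% of 27025 genes with the same window. Exactly at the annotated start it was present in 12 members (18.8%) against 2.49% of genes. Below are these 30 bases for members to which the results return: the abundant Rps12, members whose level after injury was low (Rps27, Rpl10) or high (Rplp0, Rpl15, Rps2) relative to the other members, Rplp2, which was low in 3 of the 4 comparisons with uninjured cells and high in Gli1- cells at 21 dpi, and the paralogs Rpl39l and Rps27l. Capitals mark the first pyrimidine run that starts with C.

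Rps12 (chr10:23787190-23787219, minus strand): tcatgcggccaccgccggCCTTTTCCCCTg
Rplp2 (chr7:141447641-141447670, plus strand): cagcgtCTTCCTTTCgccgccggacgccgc
Rps27 (chr3:90213629-90213658, minus strand): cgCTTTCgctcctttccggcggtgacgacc
Rpl10 (chrX:74270806-74270835, plus strand): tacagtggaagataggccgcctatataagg
Rplp0 (chr5:115559457-115559486, plus strand): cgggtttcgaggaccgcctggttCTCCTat
Rpl15 (chr14:18270967-18270996, minus strand): agaaagCCTTCTTCCTTTCCTCTggcggca
Rps2 (chr17:24720053-24720082, plus strand): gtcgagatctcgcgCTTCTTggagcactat
Rpl39l (chr16:10170218-10170247, plus strand): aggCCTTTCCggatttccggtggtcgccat
Rps27l (chr9:66946076-66946105, plus strand): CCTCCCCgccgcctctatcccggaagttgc

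The longest run was 17 bases in Rpl15, 11 in Rps12, 9 in Rplp2, 9 in Rps27 (its second run, after the one in capitals), 7 in both paralogs, 6 in Rps2 and 5 in Rplp0. None was found in the Rpl10 window, which says only that these letters are not at the annotated start.

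Depth and composition differed between libraries. Between 7057 and 10882 cells per library were kept, with 52232467 to 106177877 UMIs in all; the median cell held 4246.5 UMIs in Gli1- uninjured cells and 7890 to 9699 in the other libraries. Kept barcodes shared by any pair of libraries numbered 13 to 33. The labels give equal numbers of each sex and give 8 mice per time point with no separate number for each sort, yet Xist, the RNA of the inactive X chromosome of female cells, was found in 1, 2 and 6 cells of Gli1+ 7 dpi, Gli1- uninjured and Gli1- 7 dpi. In these 3 libraries 58.8% to 70.4% of cells held UMIs of the Y-linked Ddx3y, Uty, Eif2s3y or Kdm5d. In the 21 dpi libraries 95.1% (Gli1+) and 92.2% (Gli1-) of cells held Xist and 2.51% and 1.67% a Y-linked UMI. Gli1+ uninjured cells held both, with Xist in 71.8% and a Y-linked gene in 17.5% of cells, unlike the Gli1- uninjured cells of the same cohort. Cntn5 moved with the same split, at 176 to 666 UMIs per 1000000 UMIs (CPM) in the libraries without Xist and 0.368 to 2.39 CPM in the others. Sex and time point cannot be told apart for Gli1+ cells at 7 dpi or Gli1- cells at 21 dpi against uninjured cells of their sort. The same holds for 7 against 21 dpi in both sorts. Sex and sort likewise cannot be told apart between the uninjured libraries. Gli1- cells at 7 dpi and uninjured both lacked Xist. Gli1+ cells at 21 dpi and uninjured both held it, in unequal shares. Gli1 mRNA did not separate the sorts. It stood at 6.58, 2.13 and 4.17 CPM in the libraries labelled Gli1+ and at 7.72, 2.496 and 4.19 CPM in those labelled Gli1-, with intervals that overlap at each time point. In mesenchymal cells it stood at 11.7, 1.83 and 3.64 CPM and at 9.62, 2.65 and 3.999 CPM, and was lower in the Gli1+ library beyond counting error at 7 dpi. The sort reads the reporter and not the mRNA at collection. Why Gli1 mRNA did not separate the sorts was not tested. The tissue label names tendon cells; Gli1+ uninjured cells included 2571 T cell-like cells and only 1496 cells of mesenchymal clusters.

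Ribosomal protein genes gave 11.8% to 18.3% of the UMIs of a library. The Gli1+ libraries held 18.3% when uninjured, 17.3% after 7 and 15.9% after 21 days. In Gli1- cells the shares were 11.8%, 14.3% and 14.2%. The Gli1+ share was thus lower after injury and the Gli1- share higher, and the Gli1+ share was above the Gli1- share at each time point, by 6.48, 2.98 and 1.65 percentage points. Counting intervals of these shares were at most 0.0188 points wide. The median cell had 16.7%, 15.6% and 14.1% for Gli1+, against 10.5%, 13.4% and 13.3% for Gli1- libraries, and the middle 90% of cells ranged from 5.88% to 32.9% in Gli1+ uninjured and from 2.10% to 20.9% in Gli1- uninjured cells. Malat1, a nuclear RNA that is high where cytoplasmic RNA is lost, took 2.08%, 1.23% and 1.80% of Gli1+ and 1.60%, 1.06% and 1.79% of Gli1- UMIs; its part in these shares was not tested.

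The share differed between cell types. Cells were grouped by clustering without the ribosomal protein and marker genes, and clusters were named by their markers. In Gli1+ uninjured cells the share ran from 7.61% in smooth muscle-like cells to 27.8% in skeletal muscle-like cells, a 3.65-fold range over 9 classes. Between these lay tenocyte-like (10.4%), endothelial-like (11.5%), myeloid-like (13.4%), mesenchymal (14.6%), T cell-like (22.8%), NK or innate lymphoid-like (25.3%) and epidermal-like cells (25.4%). The range was 3.97-fold over 5 classes in Gli1- uninjured cells, but 1.92-fold and 1.36-fold over 4 classes each at 7 dpi in the Gli1+ and Gli1- libraries, and 2.49-fold and 3.43-fold over 7 classes each at 21 dpi. The skeletal muscle-like cluster was small, with 75 cells, and was led by Calcr and Pax7, the latter a gene of muscle stem cells, together with muscle fiber genes. Over all classes of at least 50 cells the counting intervals spanned at most 0.450 points. Neighbours in this order stood apart by more than counting error, and nothing is known of the spread between mice. A cluster of 260 cells with Dach2, Il13, Klrg1 and Arg1 among its leading genes stayed unnamed and had 23.3%. Kit was the only mast cell marker among its leading genes. Il13, Klrg1 and Arg1 are also leading genes of group 2 innate lymphoid cells, but it was not counted in the NK or innate lymphoid-like class.

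**Figure D1:**
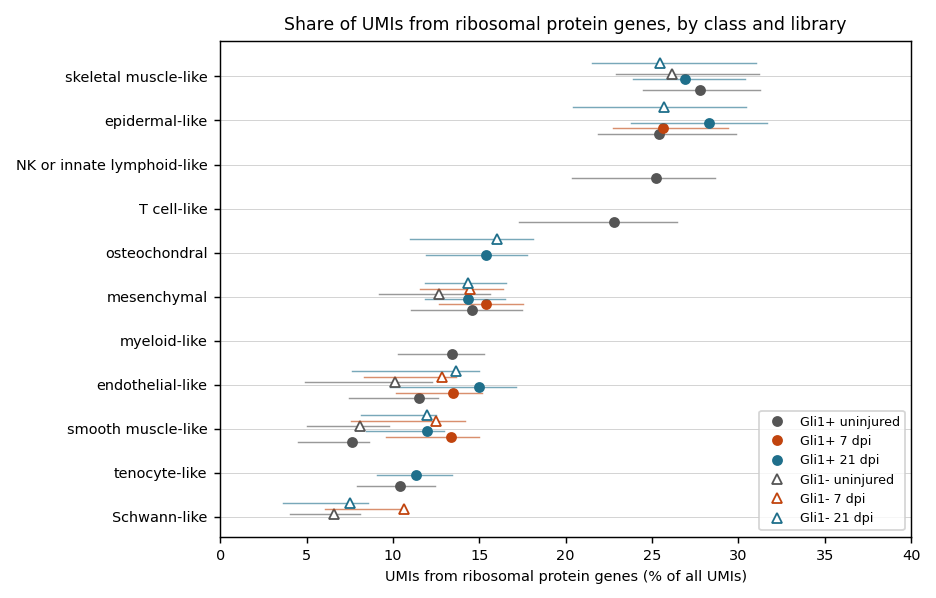
Share of UMIs from the 84 ribosomal protein genes (x axis, percent) by marker-defined class (y axis) and library. Points are pooled shares and lines the quartiles of single cells; filled circles are Gli1+ and open triangles Gli1- libraries. Epidermal-like and skeletal muscle-like cells sit at 25.4% to 28.3% in every library shown, while smooth muscle-like cells sit at 7.61% and 8.11% in uninjured tendon and at 11.97% to 13.4% after injury.

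T cell-like cells were not uniform. Their pooled share was 1.56-fold that of mesenchymal cells of the same library. The cluster led by Cd8b1, Ccr7 and Lef1, genes of naive T cells that have not met antigen, held 506 cells with a share of 32.6%. The cluster led by Scart1, Blk and Il17a, genes of interleukin-17 producing gamma-delta T cells, held 1080 cells at 20.2%. The cluster led by Ctla4, Izumo1r and Cd4 held 985 cells at 20.9%. The naive-type cluster therefore carried the highest share of any Gli1+ uninjured cluster of at least 50 cells. T cell-like, NK or innate lymphoid-like and myeloid-like cells reached 50 cells only in this library, and the pooled Gli1+ share was lower in the libraries where they fell under that number. Their part in it was not tested.

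Classes found in several libraries differed in direction. Smooth muscle-like cells had 7.61%, 13.4% and 11.998% for Gli1+ and 8.11%, 12.5% and 11.97% for Gli1- libraries in the order of uninjured, 7 and 21 dpi. The share after injury was 1.76-fold and 1.58-fold the uninjured value in Gli1+ and 1.54-fold and 1.48-fold in Gli1- cells. Endothelial-like cells had 11.5%, 13.5% and 14.998% for Gli1+ and 10.1%, 12.8% and 13.7% in Gli1- libraries, again with both time points above uninjured in both sorts. Schwann-like cells of the Gli1- sort had 6.59%, 10.6% and 7.49%. Epidermal-like cells of the Gli1+ sort had 25.4%, 25.7% and 28.3%. Their cluster with Krt14 and Krt5 among its leading genes had 27.2%, 25.9% and 29.5% and their cluster led by Lhx2 and Krt35 24.2%, 22.9% and 24.6%, so both were lower at 7 dpi than in uninjured tissue, while the former went from 78 to 1645 cells. Tenocyte-like cells of the Gli1+ sort had 10.4% in uninjured tendon and 11.4% at 21 dpi; this cluster met the tenocyte markers but was led by Ptprt and Col22a1, and the Gli1- cluster with like leading genes stayed unnamed. Skeletal muscle-like cells were lower at 21 dpi in both sorts, with 26.9% against 27.8% for Gli1+ and 25.4% against 26.2% for Gli1- libraries, of 50 to 139 cells each.

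Different clusters filled a class at different times. Gli1- uninjured smooth muscle-like cells were mostly in the cluster led by Zmat4 and Casq2 (634 cells, 7.05%), which had 7.71% at 7 dpi and 8.49% at 21 dpi. At 21 dpi most were in the cluster led by Gm13889 and Trpc6 (932 cells, 12.1%), which had 9.80% in uninjured tendon and 13.4% at 7 dpi. Both clusters were thus higher after injury, by less than the class as a whole. Among Gli1- endothelial-like cells the cluster led by Slc28a2 and Timp4 had 9.35%, 10.1% and 9.88%, and the cluster led by Selp and Sele, adhesion genes of inflamed venules, had 16.3%, 14.5% and 15.02%. The latter held 128 cells in uninjured tendon and 800 at 21 dpi. The Gli1- Schwann-like cluster led by Sostdc1 and Kcna1 had 7.05%, 11.8% and 7.004% (126, 53 and 94 cells), so it was not higher at 21 dpi.

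Mesenchymal cells, that is clusters with Pdgfra at 100 CPM or more that matched no class outside the tendon lineage, were compared in most depth. Clusters with tenocyte markers that passed this limit were included and made up much of the class at 21 dpi, while 689 tenocyte-like cells of the Gli1+ uninjured library lay in a cluster below it (40.8 CPM) and formed a class of their own. From uninjured to 7 and 21 dpi their share was 14.6%, 15.4% and 14.4% for Gli1+ cells, against 12.7%, 14.5% and 14.3% for Gli1- cells. On the log2 scale Gli1+ cells differed from uninjured by 0.078 at 7 dpi and by -0.022 at 21 dpi, and Gli1- cells by 0.19 and 0.18. The Gli1- uninjured library was thus the low value among 6, and Gli1+ cells exceeded Gli1- cells by 1.93 points in uninjured tendon, 0.946 points at 7 dpi and 0.0463 points at 21 dpi. The uninjured libraries of the sorts also differed in Xist. Gli1- uninjured mesenchymal cells were also the shallowest, with a median of 5707 UMIs against 8948 to 11527 in the other libraries. With cells of at least 5000 UMIs only, the Gli1- differences were 0.21 and 0.18. The Gli1+ values were not stable. With cells picked by marker UMIs without clusters they were 0.24 and 0.14, with tenocyte-like and osteochondral clusters added 0.21 and 0.11, and over all kept cells -0.080 and -0.20. The Gli1- values kept their direction, but were 0.094 and 0.077 with cells picked by marker UMIs and no cell filters. TMM scaling, which assumes that most genes keep their level, shifted all log2 ratios by 0.26, 0.41, 0.15 and 0.22 and gave 0.34, 0.39, 0.34 and 0.40.

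The clusters that held the mesenchymal cells differed in part between time points. In Gli1+ libraries uninjured cells lay in cluster 9 (1201 cells, led by Inmt and C7) and cluster 7 (232 cells, led by Cyp2f2 and Sema3e), both of which also held cells at 21 dpi. Cluster 9 had 14.5% in uninjured tendon and 14.8% at 21 dpi (482 cells), and cluster 7 had 15.03% and 14.8%. With 2919 cells at 21 dpi, cluster 7 was the largest Gli1+ mesenchymal cluster of that time point. At 7 dpi the Gli1+ cells lay in cluster 23 (3812 cells, with Crabp1, Gzme and Tnn, a tenascin of the matrix, among its leading genes), with 15.9%, and cluster 24 (2025 cells, led by Klk1 and Pgr), with 13.9%. At 21 dpi cluster 19, led by Eno3 and Matn4 and with the tenocyte genes Cilp2 and Tnmd among its leading genes, held 2877 of the 7263 mesenchymal cells at 14.1%, and cluster 25, led by Saa3 and Mmp10, 724 cells at 13.9%. No Gli1+ mesenchymal cluster held 50 cells both in uninjured tendon and at 7 dpi. In Gli1- libraries 6 clusters held cells at all time points: at 7 dpi the share was higher than uninjured in 2 and lower in 4 of them, and at 21 dpi higher in 4 and lower in 2. The large uninjured cluster 4 (2838 cells, led by Rtl4 and Grm8) had 11.3%, and 9.26% at 7 dpi. Cluster 9 of the Gli1- sort, led by Sv2c and Dpp4, a gene of sheath and fascia progenitors, had 14.2%, 11.1% and 13.3%. At 7 dpi most Gli1- mesenchymal cells lay in cluster 19 (3687 cells, 15.2%; led by Crabp1 and Gzme) and cluster 14 (3226 cells, 13.4%), which held 58 cells in uninjured tendon (16.1%), and cluster 4 held 108 cells. At 21 dpi 4537 of 6996 Gli1- mesenchymal cells lay in cluster 16, which also has Cilp2 and Tnmd among its leading genes and had 11.3%, 12.5% and 14.4% (69, 195 and 4537 cells), and 877 lay in the Saa3-led cluster 21 (13.7%). How much of the class difference goes with the mix of clusters was not tested.

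**Figure D2:**
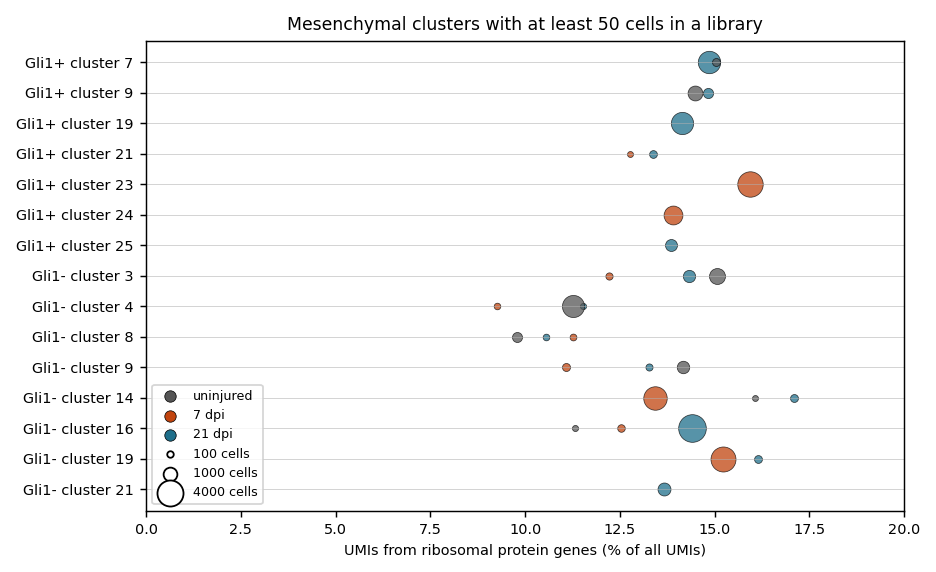
Share of UMIs from ribosomal protein genes (x axis, percent) in each mesenchymal cluster of at least 50 cells in a library (y axis). Colour gives the time point and the area the number of cells. In Gli1- cluster 3 the 7 dpi point (12.2%) lies left of the uninjured point (15.1%), while the large 7 dpi cluster 19 lies at 15.2%.

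Small and large subunit members kept a narrow ratio. Small subunit UMIs were 0.911, 0.900 and 0.881 times those of the large subunit without the stalk in Gli1+ and 0.899, 0.876 and 0.879 times in Gli1- libraries. Over the classes of Gli1+ uninjured cells the ratio ran from 0.825 to 0.946. The stalk genes varied more, at 6.23%, 5.21% and 6.15% of member UMIs in Gli1+ and 4.69%, 5.33% and 6.14% in Gli1- libraries. The 3 libraries without Xist had the 3 lowest stalk shares of member UMIs.

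The most abundant members over the 6 libraries included Rplp1, Rps12, Rpl13 and Rps20. UMIs of a 3' library count molecules, so levels were compared between genes without division by length. Rplp1 stood at 5497, 4121 and 4992 CPM among Gli1+ and 2941, 3900.5 and 4559 CPM in Gli1- libraries. The 5 highest members of each library took 11.7% to 12.7% of member UMIs, so no few genes carried the module. The canonical members, that is all but the paralogs, spanned 701 to 5497 CPM in Gli1+ uninjured and 430 to 3125 CPM in Gli1- uninjured cells. In each library 83 members had UMIs; Rpl10l, a gene otherwise known from testis, had none, which at 3 counts allows up to 0.0574 CPM in the shallowest library.

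In mesenchymal cells 82 members held at least 100 UMIs over both libraries of each comparison; Rpl10l and Rpl3l did not. Their median log2 ratio over uninjured was 0.11 and -0.013 in Gli1+ cells at 7 and 21 dpi and 0.17 and 0.16 in Gli1- cells. The median over all 13466 to 14470 genes compared was -0.099, -0.24, -0.056 and -0.11, so the members lay 0.21, 0.22, 0.23 and 0.27 above the median gene. That set includes many long genes, while most members are short. Genes outside the module with transcripts of 600 to 1000 bases had medians of 0.64, 0.49, 0.57 and 0.43. Those under 600 bases had 0.28, 0.35, 0.42 and 0.52. The member median was below both in each comparison, and the part of length was not tested. The median of genes with at least 500 CPM, which include most of the members themselves, was 0.072, 0.049, 0.084 and 0.12. Against this partly shared set the member median was higher in 3 comparisons and lower at 21 dpi in Gli1+ cells, by smaller amounts. Both time points of a sort share its uninjured library, so their values are not independent. At 7 dpi in Gli1+ cells 46 members were higher and 36 lower than in uninjured cells, at 21 dpi 40 and 42. In Gli1- cells 56 were higher and 26 lower at 7 dpi, and 63 and 19 at 21 dpi. These counts move with the scaling: 51, 61, 60 and 72 of the 82 members lay above the median of all genes.

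A member was counted as departing from the rest where its log2 ratio lay at least 0.58, the fold threshold of the study's methods, away from the median of the members. At 7 dpi in Gli1+ cells 7 members lay above and 17 below. Of all genes compared 26.8% lay as far above and 24.9% as far below their own median, and of the 273 genes with at least 500 CPM 24.5% and 27.8%. These high genes again include most of the members. At 21 dpi in Gli1+ cells the counts were 3 above and 3 below, where 23.7% and 19.9% of all genes and 20.3% and 18.5% of the high genes departed. In Gli1- cells 7 members lay above and 4 below at 7 dpi (all genes 25.3% and 23.5%, high genes 20.5% and 30.8%). At 21 dpi 3 lay above and none below (all genes 23.9% and 22.9%, high genes 18.5% and 30.2%). With 24, 6, 11 and 3 of 82 members departing, a smaller part of the members than of all genes departed in each comparison, and most departed in Gli1+ cells at 7 dpi. With cells picked by marker UMIs 28 departed there, of which 12 were among the 24.

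**Figure D3:**
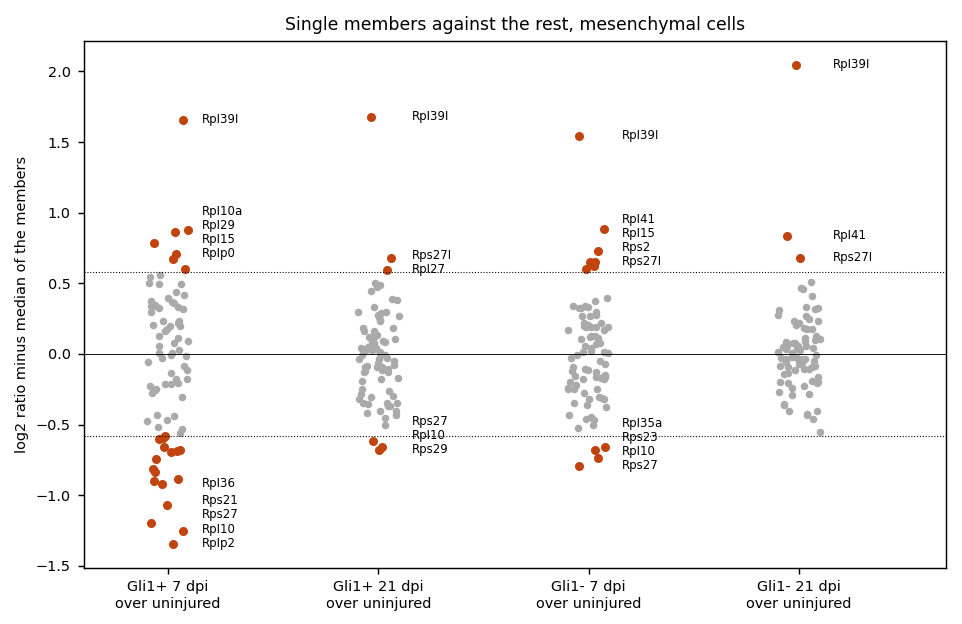
Log2 ratio over uninjured of each of 82 members in mesenchymal cells, minus the median of the members (y axis), in the 4 comparisons (x axis; horizontal scatter has no meaning). Red points lie at or beyond 0.58 (dotted lines), and up to 5 per side are named. Rpl39l is the highest point in all 4 comparisons, and the lower tail at Gli1+ 7 dpi reaches -1.34 (Rplp2).

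Several members were low against the rest in some or all of the injured libraries. Rplp2, a stalk protein that recruits elongation factors, stood at 2255, 958 and 1687 CPM among Gli1+ and 1188, 947 and 1669 CPM in Gli1- mesenchymal cells at 0, 7 and 21 dpi. It departed by -1.34 at 7 dpi in Gli1+ cells, -0.41 at 21 dpi, and by -0.50 and 0.33 in Gli1- cells. All 3 libraries without Xist were below the other 3. Rpl10, which joins the large subunit late in its assembly, stood at 2023, 917 and 1268 CPM among Gli1+ and 1311, 890 and 1143 CPM in Gli1- cells. Here the uninjured library was the highest of each sort, with departures of -1.25, -0.66, -0.73 and -0.36. Rps27 behaved alike, at 1678, 791 and 1084 CPM and at 1205, 784 and 1013 CPM, with departures of -1.19, -0.62, -0.80 and -0.41. Rps21 (2070, 1063 and 1612 CPM among Gli1+; 1387, 1091 and 1578 CPM in Gli1-) departed by -1.07 at 7 dpi in Gli1+ cells and by 0.03 at 21 dpi in Gli1- cells. Rps29 was lowest at 21 dpi in both sorts, at 921 and 875 CPM against 1488 and 1150 CPM in uninjured cells. Rpl36 departed by -0.92 in Gli1+ cells at 7 dpi and stood at 923, 754 and 1054 CPM in Gli1- cells. Rps23 and Rpl35a departed by -0.68 and -0.66 in Gli1- cells at 7 dpi and by -0.84 and -0.90 in Gli1+ cells.

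Others were high. Rplp0, the stalk base to which Rplp1 and Rplp2 bind, stood at 1867, 3285 and 2573 CPM among Gli1+ and 1663, 2843 and 2556 CPM in Gli1- cells, so both injured libraries exceeded the uninjured library of their sort. Its departures were 0.71, 0.48, 0.60 and 0.46. Rpl10a stood at 1071, 2117 and 1506 CPM and at 1146, 1992 and 1499 CPM. Rpl15 stood at 1309, 2432 and 1766 CPM and at 1222, 2289 and 1702 CPM. Rps2 stood at 2043, 3503 and 2634 CPM and at 1855, 3293 and 2585 CPM. Each of these had the same order in both sorts, highest at 7 dpi and lowest in uninjured cells. In both sorts the 7 dpi library lacked Xist and the 21 dpi library held it, so sex and these time points cannot be told apart. Rpl29 departed by 0.86 in Gli1+ cells at 7 dpi and by 0.37 in Gli1- cells, and Rpl27 by 0.59 in Gli1+ cells at 21 dpi. Rpl41, the shortest ribosomal protein, was low only in Gli1- uninjured cells, at 1650 CPM against 2644 to 3497 CPM in the other libraries, and so departed by 0.88 and 0.83 in Gli1- cells and by 0.29 at both time points in Gli1+ cells.

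**Figure D4:**
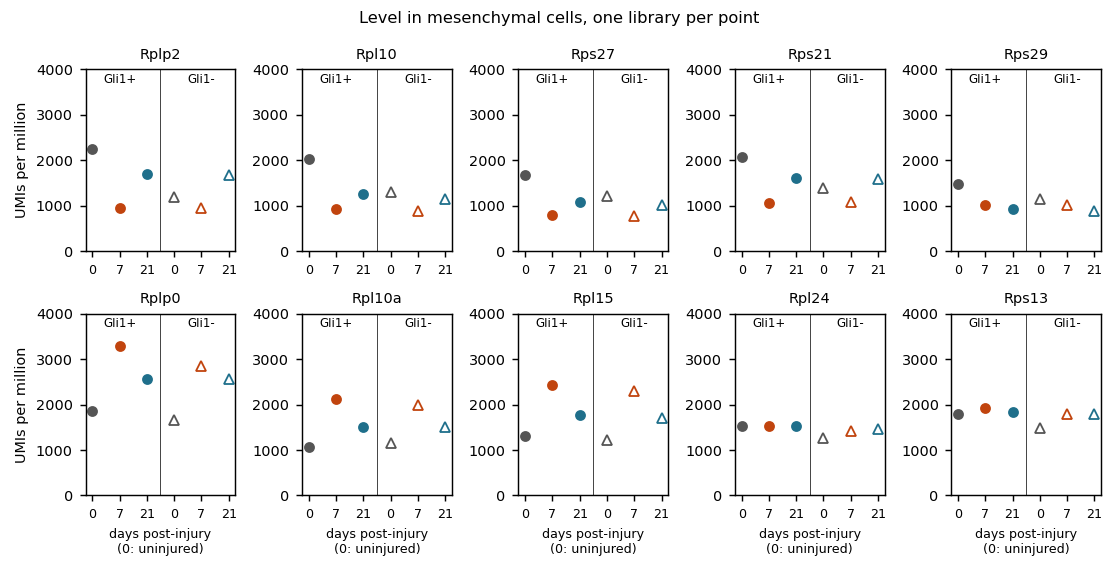
Level of 10 members in mesenchymal cells (y axis, CPM, from 0) by days post-injury (x axis; 0 is uninjured), with 1 library per point; filled circles are Gli1+ and open triangles Gli1-. Rplp2, Rpl10 and Rps27 are lowest at 7 dpi, Rplp0, Rpl10a and Rpl15 are highest at 7 dpi, and Rpl24 stays between 1266 and 1532 CPM.

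Other classes held departures of the same sign. At 7 dpi in the Gli1+ libraries Rplp2 departed by -1.26 in endothelial-like, -1.25 in epidermal-like and -1.49 in smooth muscle-like cells. Rps27 departed by -1.31, -0.77 and -0.99 and Rps21 by -1.10, -0.80 and -1.25 in the same classes. Rplp0 departed by 0.92, 0.40 and 0.94, and Rpl10a by 0.90, 0.71 and 0.99. These classes come from the same libraries as the mesenchymal cells, so they do not give independent values, and the cell type and the library cannot be told apart by them.

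A larger part of the members than of all genes was lower in the libraries without Xist, and a smaller part was higher. In mesenchymal cells 17 of 82 members were lower in each of the 3 libraries without Xist than in each of the other 3, where 7.86% of all genes were, and 3 were higher (7.92% of all genes). The lower set held Rplp1, Rplp2, Rps21, Rpl23a, Rpl30 and Rpl36, and the higher set held Rps18. Rpl23a stood at 1288 to 1359 CPM in the libraries without Xist and 1817 to 2095 CPM in the others. Of the 4 X-linked members, Rps4x, Rpl36a and Rpl39 were in the lower set and Rpl10 was not. Rpl39, which lines the exit tunnel of the ribosome, had 1236 to 1316 CPM without and 1557 to 2045 CPM with Xist. Rps4x differed least, at 2285 to 2506 CPM against 2524 to 2784 CPM. Sex and library cannot be told apart here.

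Transcript length moved with the departures in Gli1+ cells at 7 dpi. Lengths of the principal transcripts (GENCODE M21) were at hand for all 82 members. Of the 17 members below, 12 were shorter than the median of 778.75 bases, and Pearson's r between log2 length and departure was 0.38 over the 82 members; it was 0.24, 0.23 and -0.059 in the other comparisons. Among genes that are not members, the median log2 ratio in Gli1+ cells at 7 dpi was 0.28 under 600 bases (147 genes), 0.64 from 600 to 1000 bases (617 genes) and -0.33 from 4000 bases on (3928 genes). Below 1000 bases, where most members lie, the shorter genes were thus also the lower ones, while the longest genes were lowest. Genes are not independent replicates, and the part of length was not tested. Near-identical copies held few UMIs of their own in mesenchymal cells: Rpl10-ps3 had 36.8 to 52.3 CPM, Rps27rt 31.0 to 46.7 CPM and Rplp2-ps1 none. Rpl10-ps3 took 1.79%, 5.10% and 3.44% of the UMIs of the pair with Rpl10 in Gli1+ cells. Reads that match a gene and its copy equally are not in these counts, so the levels of Rpl10 and Rps27 are uncertain to that extent.

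The members closest to the median of the module over the 4 comparisons included Rpl24, Rps13 and Rpl22l1. Rpl24 stood at 1532, 1528 and 1525 CPM among Gli1+ and 1266, 1420 and 1462 CPM in Gli1- mesenchymal cells and departed by -0.11 to 0.05. Rps6, the target of S6 kinase, stood at 1186, 1104 and 1169 CPM and at 1130, 1126 and 1047 CPM. Rpl5 and Rpl11, which together with 5S rRNA bind Mdm2 and so stabilize p53, differed from each other: Rpl5 departed by -0.44, -0.25, -0.25 and -0.06 and Rpl11 by 0.33, 0.24, 0.21 and 0.11. Rpl38, known for its role in the translation of Hox mRNAs, departed by -0.52, -0.29, -0.28 and -0.13. Rpsa, also known as a laminin receptor, departed by 0.50, 0.05, 0.22 and -0.05. Rplp1 departed by -0.25, 0.19, 0.12 and 0.41, between its partners Rplp2 and Rplp0 in each comparison.

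Of the paralogs, Rpl39l stood out. It resembles Rpl39, is known from male germ cells and pluripotent cells, and was rare here. In mesenchymal cells it had 59 UMIs in Gli1+ uninjured cells, or 3.87 CPM (95% Poisson interval 2.95 to 4.99), 846 UMIs or 13.1 CPM (12.3 to 14.1) at 7 dpi and 902 UMIs or 12.3 CPM (11.5 to 13.1) at 21 dpi. In Gli1- cells it had 1.64 CPM (1.24 to 2.12), 5.39 CPM (4.93 to 5.87) and 7.54 CPM (6.91 to 8.21). Both injured libraries exceeded the uninjured library of each sort beyond counting error, by 3.40-fold and 3.17-fold in Gli1+ and 3.29-fold and 4.61-fold in Gli1- cells. Gli1+ cells also exceeded Gli1- cells at each time point, though the uninjured libraries of the sorts differed in Xist. Rpl39l took 0.189%, 0.989% and 0.749% of the UMIs of the pair Rpl39 and Rpl39l in Gli1+ and 0.132%, 0.413% and 0.482% in Gli1- mesenchymal cells. Epidermal-like cells held little of it, with 1.31 CPM (0.828 to 1.96) in Gli1+ 7 dpi cells, below the 13.1 CPM of mesenchymal cells of that library. Osteochondral cells at 21 dpi had 2.997 CPM (1.60 to 5.12) in the Gli1+ and 8.53 CPM (6.25 to 11.4) in the Gli1- library, and smooth muscle-like cells 8.46 CPM (5.96 to 11.7) and 3.69 CPM (2.51 to 5.24). Gli1+ uninjured T cell-like cells had 1.14 CPM (0.737 to 1.68).

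Rps27l, a p53 target that resembles Rps27, was also higher after injury. It stood at 224, 310 and 355 CPM among Gli1+ and 191, 338 and 339 CPM in Gli1- mesenchymal cells, with log2 ratios of 0.47, 0.67, 0.83 and 0.83. Since Rps27 was lower, Rps27l took 11.8%, 28.2% and 24.7% of the UMIs of the pair in Gli1+ and 13.7%, 30.1% and 25.1% in Gli1- cells. In epidermal-like cells of the Gli1+ libraries it took 13.2%, 18.0% and 17.8%. Its departure was 0.36, 0.68, 0.65 and 0.68 in mesenchymal cells. In endothelial-like cells it was 0.37, 0.40, 0.25 and 0.21, and in smooth muscle-like cells -0.20, 0.30, 0.04 and 0.07. No departure in these classes reached 0.58. Of the pair, Rps27l took 9.68%, 25.5% and 21.1% in Gli1+ and 14.5%, 25.5% and 23.4% in Gli1- endothelial-like cells. In smooth muscle-like cells it took 16.1%, 24.8% and 26.6% in Gli1+ and 22.7%, 33.5% and 28.7% in Gli1- libraries. Its share of the pair was thus higher after injury in these classes too.

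Rpl36al stood at 351, 488 and 438 CPM among Gli1+ and 303, 430 and 409 CPM in Gli1- mesenchymal cells. Rpl22l1, which resembles Rpl22, stood at 435, 541 and 420 CPM and at 431, 511 and 483 CPM. Rpl7l1, a factor of ribosome assembly, stood at 35.0, 53.5 and 41.8 CPM and at 36.6, 52.2 and 41.1 CPM. All 3 were highest at 7 dpi in both sorts, where both libraries lacked Xist. Rpl3l, the paralog of Rpl3 in heart and skeletal muscle, had 10 or fewer UMIs in 5 of 6 mesenchymal libraries and 13 in Gli1+ 7 dpi cells. In skeletal muscle-like cells of Gli1- uninjured tendon it had 18 UMIs, or 33.7 CPM (19.9 to 53.2), and in those of Gli1+ uninjured tendon none, which at 3 counts allows up to 5.13 CPM.

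**Figure D5:**
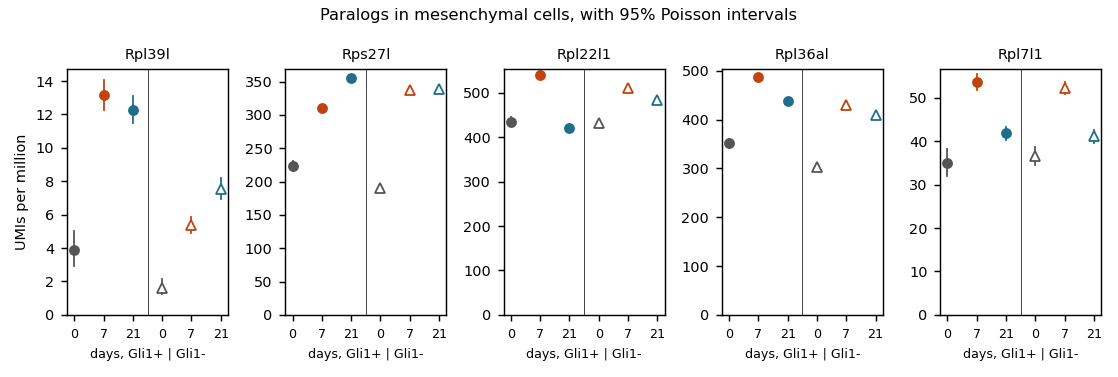
Levels of 5 paralogs in mesenchymal cells (y axis, CPM, from 0, with a scale of its own in each panel) by days post-injury (x axis, Gli1+ left and Gli1- right of the line). Bars are 95% Poisson intervals, which cover counting error only. Rpl39l and Rps27l lie above uninjured at both time points in both sorts.

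The make-up of the module also differed between cell types of a single library. In Gli1+ uninjured cells 79 members held at least 100 UMIs in each of the 9 classes, and their share among member UMIs varied by a median of 1.44-fold between the lowest and highest class; 5 varied by 2-fold or more. Among these Rps29 varied most, 3.29-fold, from 0.730% in skeletal muscle-like to 2.41% in myeloid-like cells, with 1.02% in mesenchymal cells. Rpl36al ran from 0.132% in skeletal muscle-like to 0.301% in myeloid-like cells. Rplp0 ran from 0.823% in myeloid-like to 1.88% in epidermal-like cells. Rpl41 ran from 0.985% in skeletal muscle-like to 2.22% in smooth muscle-like cells, and Rpl10 from 0.752% in NK or innate lymphoid-like to 1.65% in tenocyte-like cells. Rps27l, left out of the 79 for its 82 UMIs in skeletal muscle-like cells, ran further, from 0.0275% in NK or innate lymphoid-like (271 UMIs) and 0.0432% in T cell-like to 0.238% in smooth muscle-like cells (136 UMIs). Skeletal muscle-like cells held the lowest share for 3 of the 5 members over 2-fold and myeloid-like cells the highest for 2. The same range was not taken for other genes, so these counts stand without a background.

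The wider translation machinery was compared in the same mesenchymal cells, relative to the median of all genes. Of the 82 members 16, 9, 9 and 11 lay at least 0.58 above it in the 4 comparisons, in the order given before, and 9, 0, 0 and 0 below. Of all genes 26.8%, 23.7%, 25.3% and 23.9% lay as far above and 24.9%, 19.9%, 23.5% and 22.9% as far below. Of 13 genes listed with the nascent chain, mostly translocon, signal recognition and nascent chain-associated proteins but also Rack1 of the small subunit and the nucleosome assembly protein Nap1l1, 11, 9, 10 and 8 were above and none below. Examples are Sec61b of the translocation channel (214, 724 and 500 CPM among Gli1+; 151, 698 and 507 CPM in Gli1-) and Ssr4 of the translocon-associated complex (225, 758 and 535 CPM; 229, 769 and 540 CPM). Of 78 mitochondrial ribosomal proteins 52, 52, 48 and 40 were above and 0, 0, 0 and 1 below. Their median log2 ratios were 0.75, 0.47, 0.65 and 0.48, and genes of 600 to 1000 bases that are not cytosolic members had medians of 0.64, 0.49, 0.57 and 0.43. The part of length in these counts was not tested. Of 8 elongation factors and their partners 5, 4, 4 and 3 were above and none below; Eef1b2 stood at 695, 1439.6 and 927 CPM and at 642, 1211 and 931 CPM, and Eef2 at 705, 687 and 735 CPM and at 593, 672 and 774 CPM. Of 30 initiation factors and related genes 11, 7, 8 and 5 were above and 3, 0, 2 and 2 below, with Eif6, which keeps free large subunits apart from small ones, at 58.7, 139 and 97.1 CPM in Gli1+ cells and Eif4a2 at 167, 95.1 and 99.8 CPM. Of 38 ribosome assembly genes 12, 10, 9 and 5 were above and 1, 2, 1 and 1 below; the nucleolar Npm1 stood at 473, 962 and 577 CPM and at 360, 790 and 545 CPM, and Nop58 at 130, 67.7 and 68.0 CPM and at 129, 63.7 and 71.6 CPM.

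Groups of at least 50 cells, each a class in a library, numbered 42, with the unnamed clusters of a library pooled as a group. Across them the gene outside the rule whose level followed the member share most closely was Rack1, a protein of the small subunit (Pearson's r 0.96 with log2 CPM, 511 to 3293 CPM). Gm2000 (0.96), Eif3h (0.92), Nsa2 (0.92) and Eef1a1 (0.91) came next among 3722 genes, followed by Fau (0.91). The groups share libraries and depth, so these values are descriptions. In mesenchymal cells Fau stood at 1969, 2225 and 2029 CPM among Gli1+ and 1771, 1964 and 1993 CPM in Gli1- libraries, close to the module.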

How the data were processed

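The authors deposited raw UMI counts per gene for the barcodes that Cell Ranger took as cells. The submitters' processing notes name Cell Ranger 3.1.0, STAR and mm10, while the file headers name Cell Ranger 9.0.0; the annotation release is not given in the sources used here. Each of the 6 groups is 1 library. Cells were kept with at least 200 genes, 1000 UMIs, log10 genes over log10 UMIs of 0.7, and at most 5% mitochondrial and 5% hemoglobin UMIs. In place of DoubletFinder, the Scrublet method removed the top-scoring cells at 0.8% per 1000 cells.

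Clustering was run on the 3 libraries of a sort jointly (2000 variable genes without members, markers and listed genes, 30 principal components, 20 neighbors, Leiden resolution 0.5; scanpy 1.11.5). A cluster took the class whose markers had the highest mean log2 ratio, at least 1 with 3 markers raised; mesenchymal clusters had Pdgfra at 100 CPM or more and matched no class outside the tendon lineage (tenocyte and tendon stem cell markers were allowed). Clusters whose leading genes spoke against the name stayed unnamed; these last limits were set after the clusters were seen. Counts were summed per class and library, and shares, CPM and log2 ratios taken from the sums, with exact 95% intervals (scipy 1.17.1). A member or gene needed 100 UMIs over both libraries. Named members are the 5 most abundant, up to 5 on each side of every comparison, the 5 most variable over classes, the 5 nearest the median, the paralogs and a fixed set of well-known members. Members and lists were chosen with earlier results of these data known. Ratios and intervals were tested on simulated data. TMM factors came from edgeR 4.0.16, used for nothing else. Some named members and genes are not reported here.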

Additional observations from a re-analysis of the deposited data

Results flagged for a closer look

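Over all kept cells, and in mesenchymal cells at 21 dpi, the share of ribosomal protein UMIs moved in opposite directions in the sorts, a difference that was not tested, since each sort had 1 library per time point. Over all kept cells the log2 ratio at 7 dpi over uninjured was -0.080 in Gli1+ and 0.28 in Gli1- cells, and at 21 dpi -0.20 and 0.27. The immune classes of the Gli1+ uninjured library had shares of 22.8% (T cell-like), 25.3% (NK or innate lymphoid-like) and 13.4% (myeloid-like) and were below 50 cells in the other libraries. In mesenchymal cells at 21 dpi the log2 ratio was -0.022 in Gli1+ and 0.18 in Gli1- cells. At 7 dpi it was above 0 in both sorts (0.078 and 0.19), as it was in endothelial-like and smooth muscle-like cells at both time points. The Gli1+ value at 21 dpi changed sign with other choices of cells and as a median per cell. After TMM scaling it was above 0 in both sorts.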

How the results depend on the processing

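Values below are log2 ratios of the ribosomal protein share in mesenchymal cells for Gli1+ 7 dpi, Gli1+ 21 dpi, Gli1- 7 dpi and Gli1- 21 dpi over uninjured, reported as 0.078, -0.022, 0.19 and 0.18. With all kept cells they were -0.080, -0.20, 0.28 and 0.27. With cells picked by marker UMIs they were 0.24, 0.14, 0.14 and 0.17, and with marker UMIs and no cell filters together 0.071, 0.030, 0.094 and 0.077. With all libraries clustered together the Gli1+ values were 0.14 and 0.041, and without doublet removal 0.063 and -0.031, with 0.19 in Gli1- cells at 21 dpi. With mitochondrial, Malat1, Neat1 and Cntn5 UMIs left out they were 0.063 in Gli1+ at 7 dpi and 0.19 and 0.19 in Gli1- cells. With at least 5000 UMIs per cell they were 0.085, 0.21 and 0.18 for the same comparisons. With canonical members only they were 0.075, -0.025, 0.19 and 0.18. As medians per cell they were 0.10, 0.0070, 0.21 and 0.22, and after TMM scaling 0.34, 0.39, 0.34 and 0.40. With tenocyte-like and osteochondral clusters added, an alternative chosen after the data were seen, they were 0.21, 0.11 and, in Gli1- cells at 21 dpi, 0.19. The sign thus changed in Gli1+ cells only; the cause was not tested. The log2 ratio of T cell-like over mesenchymal cells, reported as 0.64, was 0.73 with joint clustering, 0.64 without doublet removal, 0.63 with those UMIs left out, 0.65 at 5000 UMIs, 0.85 by marker UMIs and 0.62 as medians. The other settings stayed within the counting interval. Counts of departing members stayed within 1.5 times the reported count under each alternative, including a straight line on transcript length subtracted, also chosen after the data were seen; this left 18 of 24 at 7 dpi in Gli1+ cells. With cells picked by marker UMIs, 28 departed there, of which 12 were among the 24 reported.

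The labels give no replicate numbers. Both sorts of a time point come from 1 cohort in the labels, but a paired comparison of the sorts over the 3 time points was not run; over all kept cells Gli1+ exceeded Gli1- by 6.48, 2.98 and 1.65 points. Each group is 1 library, so none was left out, a fit of sort and time point over the 6 libraries was not run, and p-values, standard errors and the spread between mice are lacking. Depth limits little for the canonical members, but Rpl39l rests on 57 to 902 UMIs and Rpl3l on 5 to 13 UMIs per mesenchymal library.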
